A study of Mus musculus with 16 samples.

Results

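The 43 genes described here are interferon-stimulated genes, the antiviral and signalling genes that cells switch on when an interferon binds its receptor. They are 43 of the 55414 genes in each deposited table of mouse testis RNA-seq, and all 43 were found by matching their symbols to Ensembl gene IDs. The list was drawn up with the P16 difference between Ythdc2 knockout and control testes known, in which several of these genes had some of the largest rises. That contrast is therefore given as a description, with no test of the listed genes. The list was made by name, with no numerical threshold for a gene to pass. Members were tested at P14 and in the libraries of another depletion kit, neither of which is the contrast that singled them out.

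The study profiled testes of mice with a conditional knockout of Ythdc2 (cKO), whose product is a helicase with a reader domain for methylated adenosine, at postnatal day 14 (P14) and day 16 (P16). Its title is concerned with a late role of this protein in spermatocytes. The groups were control (2 libraries at each stage), Cre control (2 at P14 and 4 at P16) and Ythdc2 cKO (3 at each stage). Tamoxifen at 10 mg per ml was given on P12 and P13, per the treatment notes, and the labels name no other agent, strain, Cre driver or allele for any group. They do not say whether libraries came from separate animals, so a p-value here measures the spread between libraries, which may be technical. Controls and the cKO libraries numbered 1 and 2 were depleted of ribosomal RNA with Ribo-Zero components, termed the first kit. Cre controls and the cKO libraries numbered 3 had NEBNext depletion, termed the second kit. Values are gene reads scaled by a factor per library within each of 4 tables, and they carry no correction for gene length, so levels are compared between libraries of a table and not between genes. Libraries held 14494867 to 27531529 reads on genes. Ythdc2 (ENSMUSG00000034653) was lower in every cKO library than in every control library of each table, with log2 differences within a kit from -1.60 at P14 (first kit) to -2.97 at P16 (second kit). The germ cell and Sertoli cell marker lists summed to at least 37016 and 28551 in every library, so the defining markers of testis were present.

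Interferons signal through cell-surface receptors and the kinases JAK1 and TYK2 to STAT proteins, among them STAT2, which join IRF9 in a complex that binds the interferon-stimulated response element (ISRE) in promoters. Type II interferon works mainly through the gamma-activated site (GAS). The products of the induced genes sense or destroy viral RNA, block viral entry and release, modify proteins with ubiquitin-like tags, or renew the signalling complex itself.

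Promoter sequences were read from RefSeq windows of the GRCm38.p6 build, which run from 250 bases before to 50 bases after the annotated start of transcription. A window existed for 34 of the 43 genes. On either strand, 22 of the 34 (64.7%) held the letters GAAANNGAA, the core of the ISRE, against 9.76% of all 27025 genes with a window. The letters TTCNNNGAA, the core of the GAS, stood in 6 of the 34 (17.6%), against 9.55% of all genes. Such a match is a string of letters and not a measured binding site. By family, the ISRE core was in 3 of 4 IFIT windows, 3 of 5 OAS windows, 5 of 5 GTPase windows, 2 of 3 of the ISG15 group and 1 of 3 of the transcription control genes, that of Stat2. The 6 stretches below are the 200 bases before the start site in genes whose values are given later. They were picked to show the repeated matches of the IFIT genes and Isg15, and the matches close to the start of Oas1a and Gbp2. Capitals mark ISRE core matches, read on either strand.
Ifit1 (chr19:34640689-34640888, plus strand): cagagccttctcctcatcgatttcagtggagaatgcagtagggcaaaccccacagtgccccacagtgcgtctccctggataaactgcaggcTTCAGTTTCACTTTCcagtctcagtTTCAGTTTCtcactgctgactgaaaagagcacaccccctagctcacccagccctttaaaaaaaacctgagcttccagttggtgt
Ifit3 (chr19:34583329-34583528, plus strand): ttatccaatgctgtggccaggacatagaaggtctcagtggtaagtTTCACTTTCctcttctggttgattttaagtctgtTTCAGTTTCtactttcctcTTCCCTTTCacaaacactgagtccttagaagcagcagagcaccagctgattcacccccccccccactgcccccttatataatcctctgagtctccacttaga
Ifit3b (chr19:34607757-34607956, plus strand): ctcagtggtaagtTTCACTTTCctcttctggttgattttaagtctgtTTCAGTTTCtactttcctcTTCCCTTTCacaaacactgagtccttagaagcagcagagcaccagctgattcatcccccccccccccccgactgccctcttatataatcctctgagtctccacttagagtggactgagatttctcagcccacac
Isg15 (chr4:156200819-156201018, minus strand): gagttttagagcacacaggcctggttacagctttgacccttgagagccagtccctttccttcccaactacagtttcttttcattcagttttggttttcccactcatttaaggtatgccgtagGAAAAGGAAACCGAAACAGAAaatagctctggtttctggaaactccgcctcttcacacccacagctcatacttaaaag
Oas1a (chr5:120907526-120907725, minus strand): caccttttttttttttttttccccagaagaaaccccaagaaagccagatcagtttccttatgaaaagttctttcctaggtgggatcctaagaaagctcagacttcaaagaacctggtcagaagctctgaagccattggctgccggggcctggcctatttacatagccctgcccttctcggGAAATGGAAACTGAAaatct
Gbp2 (chr3:142620463-142620662, plus strand): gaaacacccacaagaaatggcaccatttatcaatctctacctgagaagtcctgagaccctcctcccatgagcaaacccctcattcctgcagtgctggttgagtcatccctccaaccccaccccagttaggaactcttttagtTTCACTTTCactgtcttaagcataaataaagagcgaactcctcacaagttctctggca

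Ifit3 and Ifit3b, neighbouring paralogs on chromosome 19, shared an unbroken run of 169 identical bases that holds all 3 of their matches, spaced 34 and 19 bases apart in both. The run starts at the first base of the Ifit3b window, so it may be longer, and the Ifit3b stretch above holds only part of it. The transcripts of these paralogs were not compared. Reads that match both genes could not be placed with certainty, so their separate values are uncertain, and the same may hold for Oas1a and Oas1g. In Ifit1 the spacings were 6 and 19 bases, with the first pair overlapping. The 3 matches of Isg15 overlapped, 6 bases apart each. In Oas1a a pair of matches began 20 and 14 bases before the start site, and the match of Gbp2 began 58 bases before it.

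**Figure D1:**
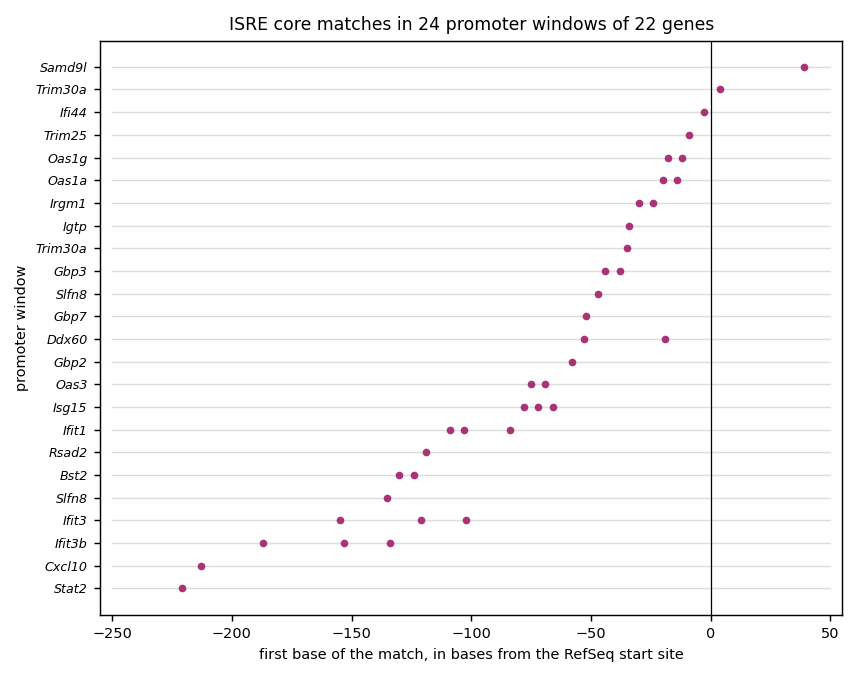
Position of each ISRE core match (point) in the promoter windows that hold one, with 1 line per window and the x axis in bases from the RefSeq start site (vertical line). Ifit3 and Ifit3b carry 3 matches with the same spacing, and Oas1a, Oas1g and Irgm1 carry theirs within 30 bases of the start.

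At P16 in the first kit, all 43 genes stood higher in both cKO libraries than in both controls. These are the values by which the list is known. Their median log2 difference was 1.24, against a median of -0.0005 over all 17986 genes tested. Among all genes tested, 34.2% had both cKO libraries above both controls, and nothing is read from this share since the contrast was used to make the list. The median of the pooled within-group SD over the 43 genes was 0.14 on the log2 scale, and the difference exceeded 2 SD in all 43. Nothing is read from that count either, for the same reason. Fewer cells of a type and less RNA per cell cannot be told apart in whole testes, nor can more of either.

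**Figure D2:**
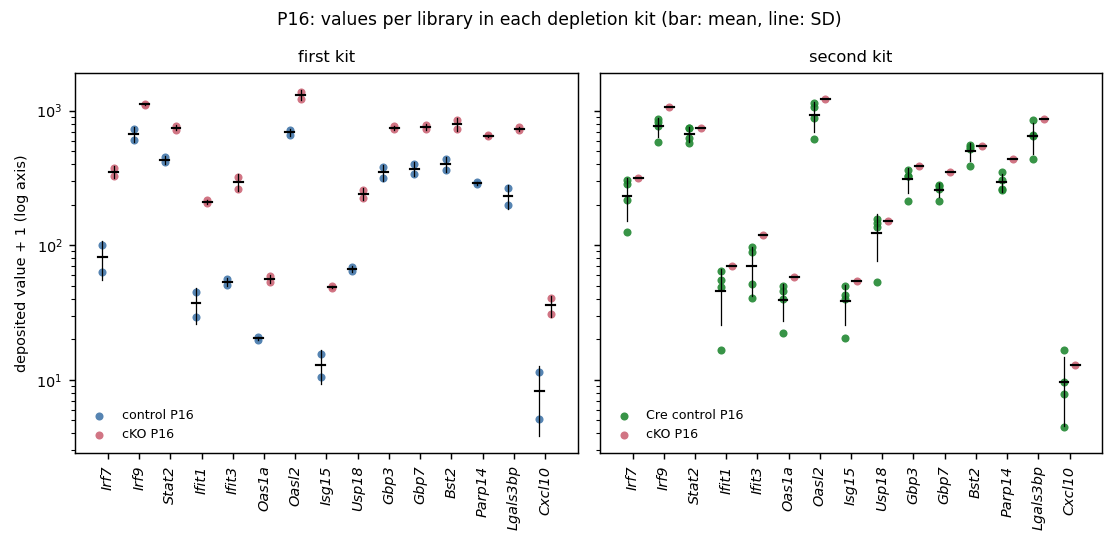
Deposited value + 1 (log axis) of 15 interferon-stimulated genes at P16, with points for libraries, bars for group means and vertical lines for the SD. In the first kit (left) no cKO point overlaps the controls, whereas in the second kit (right) the single cKO library lies within the range of the Cre controls for Stat2, Usp18, Bst2 and Cxcl10.

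The transcription control genes Irf7, Irf9 and Stat2 encode the factors through which the response sustains itself. Irf7 (ENSMUSG00000025498), which drives later interferon production, stood at 99.8 and 62.4 in the P16 controls and at 324 and 377 in cKO. Its means were 81.1 ± 26.4 (SD, n = 2) and 351 ± 37.4 (SD, n = 2), a log2 difference of 2.13. Irf9 (ENSMUSG00000002325), the DNA-binding partner of the STATs, read 729 and 608 against 1108 and 1120, a difference of 0.74. Stat2 (ENSMUSG00000040033) was at 451 and 412 in controls and at 771 and 722 in cKO, a difference of 0.79. The groups were apart for each of the 3, with Irf7 by far the most. Irf7 overlaps Phrf1 on the other strand and Irf9 overlaps Rnf31 on the same strand, so some of their reads may belong to those genes.

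The IFIT genes, whose proteins bind viral RNA ends and hold back translation, had the largest differences as a family, with a median log2 of 2.43 over 4 genes. Ifit1 (ENSMUSG00000034459) was at 43.6 and 28.4 in controls and at 204 and 214 in cKO, which is 5.81 times the control mean. Ifit3 (ENSMUSG00000074896) stood at 55.1 and 50.1 against 263 and 323, or 5.57 times. Ifit3b (ENSMUSG00000062488) rested on less, with 12.5 and 21.7 against 79.6 and 108. Ifit2 (ENSMUSG00000045932) was at 94.6 and 91.7 against 249 and 271, and its log2 difference of 1.47 was the smallest of the family. In all 4 the lowest cKO library held more than 2 times the highest control.

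The OAS family makes or resembles the enzymes that turn on RNase L in response to double-stranded RNA. Oasl2, the member with the highest values, was at 720 and 659 in controls and at 1226 and 1380 in cKO, a log2 difference of 0.92. Oas1a was at 19.7 and 18.9 against 52.4 and 58.0, a difference of 1.47. The other 4 had control values under 20. Oas2 stood at 14.5 and 6.62 against 45.6 and 50.7, Oas3 at 2.08 and 4.73 against 21.3 and 31.1, and Oasl1 at 10.4 and 19.8 against 52.4 and 51.8. Oas1g was at 2.08 and 0 against 9.70 and 12.4, too few reads for a ratio to be given.

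Isg15 encodes the ubiquitin-like tag of the response, Usp18 the protease that removes it, and Herc6 the mouse ligase that attaches it. Isg15 was at 14.5 and 9.45 in controls and at 47.6 and 48.7 in cKO, which is 4.01 times the control mean. Usp18, which also dampens the type I receptor, was at 63.4 and 68.1 against 222 and 258, or 3.65 times. Herc6 stood at 171 and 159 against 291 and 298. Trim25, a ubiquitin ligase that acts on the RNA sensor RIG-I, had the smallest difference of all 43 genes, at 885 and 869 against 1235 and 1116, a log2 difference of 0.42.

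The GTPases block viruses and vacuolar pathogens, and the GBP and IRG members among them are known for their response to type II interferon. Gbp3 was at 380 and 314 in controls and at 728 and 765 in cKO, a log2 difference of 1.11. Gbp7 was at 402 and 337 against 785 and 726, a difference of 1.03. Iigp1 stood at 141 and 113 against 580 and 377, with the cKO libraries further apart from each other than for any other GTPase in absolute value. Over the 8 GTPases the median log2 difference was 1.10, from 1.00 for Mx2 to 2.09 for Mx1, whose control values were 7.27 and 2.84.

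Among the restriction factors, Bst2, which tethers budding virus to the cell surface, was at 436 and 364 in controls and at 730 and 850 in cKO, a log2 difference of 0.98. Ddx60, a helicase linked to RIG-I signalling, was at 267 and 200 against 508 and 586, a difference of 1.24. Rsad2 (viperin) had the largest difference of the 6 in this group, 2.17. The ADP-ribosyltransferases Parp14 and Parp9 had close replicates. Parp14 read 293 and 283 against 642 and 654, and Parp9 read 266 and 295 against 489 and 535. Parp9 and Dtx3l, which encode partner proteins, overlap on opposite strands and may share reads.

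Lgals3bp, a secreted glycoprotein, was at 264 and 198 in controls and at 715 and 753 in cKO, 3.17 times the control mean. Ifi35 stood at 242 and 245 against 363 and 373, a log2 difference of 0.59. Cxcl10, the chemokine that draws in T cells, was at 4.16 and 10.4 against 30.1 and 39.4, low in every library. It overlaps Art3 on the other strand. The 9 genes of this mixed group ranged from 0.53 for Phf11d to 2.21 for Cxcl10. In all, 16 of the 43 genes overlap another annotated gene, 12 of them on the other strand. The library kit keeps strand, but whether counting used it is not given in the sources used here.

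In the second kit at P16, cKO library 3 was set against the 4 Cre control libraries, and none of these libraries entered the first-kit contrast. The fit treats the lone cKO library as varying like the Cre controls. Here 42 of 43 genes were above the Cre control mean, all except Phf11d. The median log2 difference was 0.47 (-0.20 to 0.94), against -0.028 over all genes tested, and its gap to the first kit was not tested. Of the 43, 41 passed the filter on low values (2 or more libraries at 10 or above) and were tested by limma, where called means an adjusted p under 0.05 over all genes. No member was called, and none of 18639 genes was (0% by limma). At an unadjusted p under 0.05, 2740 genes of either direction passed, and by DESeq2 134 genes were called, none of them members. At that level 8 of 41 members tested were higher, against 4.77% of all genes. The cKO library lay above all 4 Cre controls for 28 of 41 members tested, against 23.8% of all genes. The smallest adjusted p of any member was 0.228 (limma), for Iigp1.

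Each IFIT gene was above every Cre control in cKO library 3. Ifit1 was at 63.2, 53.9, 47.9 and 15.6 in the Cre controls and at 68.8 in cKO, a log2 difference of 0.76 (SE 0.65) with the Cre controls spread over a wide range. Ifit3 was at 88.5, 96.4, 50.5 and 39.9 against 118, a difference of 0.86 (SE 0.47). Ifit3b was at 23.0, 22.8, 25.3 and 19.4 against 41.0, a difference of 0.84 (SE 0.37) with the Cre controls close together. Ifit2 was at 78.2, 105, 74.9 and 61.3 against 122.

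The 8 members that passed the unadjusted level included 3 GTPases. Iigp1 was at 85.0, 76.7, 76.6 and 85.6 in the Cre controls and at 156 in cKO, a log2 difference of 0.94 (SE 0.24, limma unadjusted p = 0.00407). Irgm1, which keeps other IRG proteins inactive, was at 237, 235, 184 and 161 against 316 (0.65, SE 0.25). Gbp2 was at 140, 173, 136 and 122 against 213 (0.59, SE 0.24). Parp14 read 262, 348, 303 and 255 against 437, a difference of 0.59 (SE 0.21). Herc6 read 102, 116, 86.2 and 58.3 against 159, a difference of 0.85 (SE 0.36). Ifi204, a DNA sensor of the p200 family, was at 60.9, 41.5, 34.8 and 37.0 against 82.1 (0.93, SE 0.37). Irf9 was at 773, 869, 824 and 583 against 1064 (0.50, SE 0.21), and Trim25 at 1146, 1385, 1195 and 1162 against 1560 (0.36, SE 0.14). In each of the 8 the cKO library exceeded all 4 Cre controls, and their adjusted p ran from 0.228 to 0.331 (limma).

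None of the other named members passed the unadjusted level. Among them, cKO library 3 exceeded all 4 Cre controls except for Stat2, Usp18, Bst2, Cxcl10 and Ifi35. Irf7 was at 215, 306, 282 and 124 in the Cre controls and at 314 in cKO. Stat2 was at 629, 746, 739 and 571 against 742, below the highest Cre control. Isg15 was at 39.1, 48.7, 41.8 and 19.4 against 52.9, and Usp18 at 146, 155, 137 and 52.5 against 150. Oas1a read 39.1, 44.6, 48.8 and 21.4 against 56.9, and Oasl2 read 1063, 1141, 883 and 619 against 1226. Bst2, at 516, 558, 535 and 387 against 541, and Cxcl10, at 3.45, 15.5, 8.71 and 6.81 against 11.9, overlapped the Cre controls. Gbp3 (325, 364, 328 and 213 against 385) and Gbp7 (276, 279, 213 and 263 against 349) were higher by 0.35 and 0.45 on the log2 scale. Ddx60 was at 214, 272, 183 and 175 against 278. Parp9, at 255, 284, 195 and 213 against 320, exceeded its Cre controls, and so did Lgals3bp, at 648, 846, 658 and 436 against 874, by little. Ifi35 was at 198, 234, 219 and 200 against 218, a difference of 0.040.

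Cre control library 4 was low for these genes, with 39 of 43 below the Cre control mean. Set against single Cre control libraries, cKO library 3 was higher for 41 of 43 genes against library 1, 32 against library 2, 37 against library 3 and 41 against library 4. The median log2 differences were 0.42, 0.19, 0.41 and 0.85 in that order. The shares of all genes higher in these pairs of libraries are not given, so nothing is read from the counts. Library 1 is the one Cre control sequenced in the same run as the cKO library. Without Cre control library 2, 35 of the 41 members tested were above every remaining Cre control, against 27.6% of all genes, and with it 28 were. In this kit the pooled SD had a median of 0.31 on the log2 scale, and the difference exceeded 2 SD in 12 of 43 genes. The share of all genes that did so is not given.

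**Figure D3:**
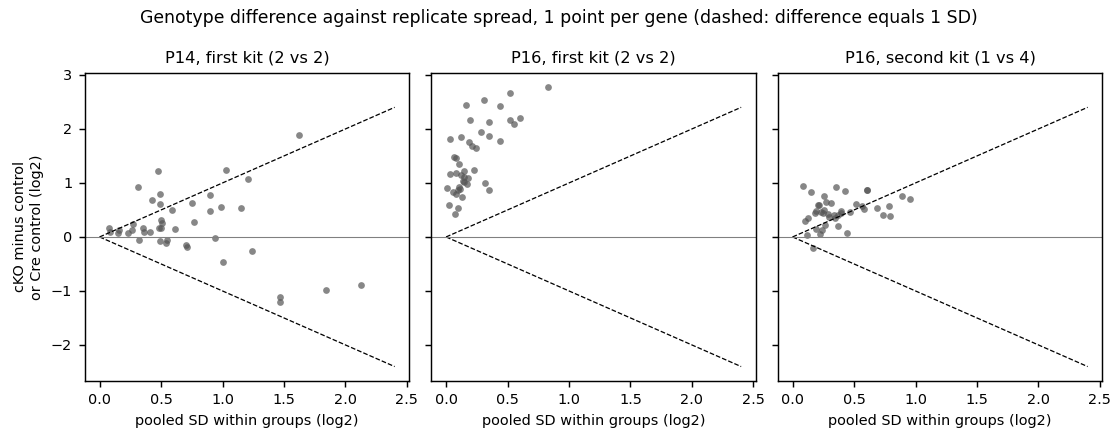
Difference between cKO and its control group (y axis, log2) against the pooled SD within groups (x axis, log2) for 43 genes, 1 point per gene, with dashed lines where they are equal. At P16 in the first kit every point lies above the upper line, whereas at P14 most lie between the lines and the median SD is 0.54.

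At P14, 1 to 2 days after tamoxifen, most of these genes differed more between replicates than between genotypes. The difference exceeded the pooled within-group SD in 9 of 43 and exceeded 2 SD, with cKO higher, in 3. No shares of all genes are given beside these counts. In the first kit 30 of 43 were higher and 13 lower in cKO, with a median log2 difference of 0.16 (-1.20 to 1.88), against 0.0090 over all genes. None of the 40 members tested was called by limma, where 1 of 17270 genes was (0.00579%), and none was called by edgeR or DESeq2. At an unadjusted p under 0.05, 1 member (Usp18) was higher, against 1.08% of all genes. Both cKO libraries exceeded both controls for 3 of the 40, against 15.1% of all genes. The pooled SD had a median of 0.54 on the log2 scale, against 0.14 at P16.

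Control library 2 at P14 held more of these transcripts than control library 1 for 41 of 43 genes, by a median of 0.92 on the log2 scale. Among the cKO libraries, library 2 was above library 1 for 41 of 43, by a median of 0.50. By the median over the genes, control library 1 was the lowest of the 4 libraries and cKO library 1 the next. Against control library 1, cKO libraries 1 and 2 were higher for 39 and 43 genes. Against control library 2 they were higher for 6 and 25. The shares of all genes higher in these pairs of libraries are not given, so nothing is read from the counts. Without control library 2, both cKO libraries exceeded the remaining control for 36 of the 40 members tested, against 30.6% of all genes, and with it for 3. The median log2 difference of all 43 was then 0.57. Without control library 1 the median was -0.22. No member was called with any library left out.

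**Figure D4:**
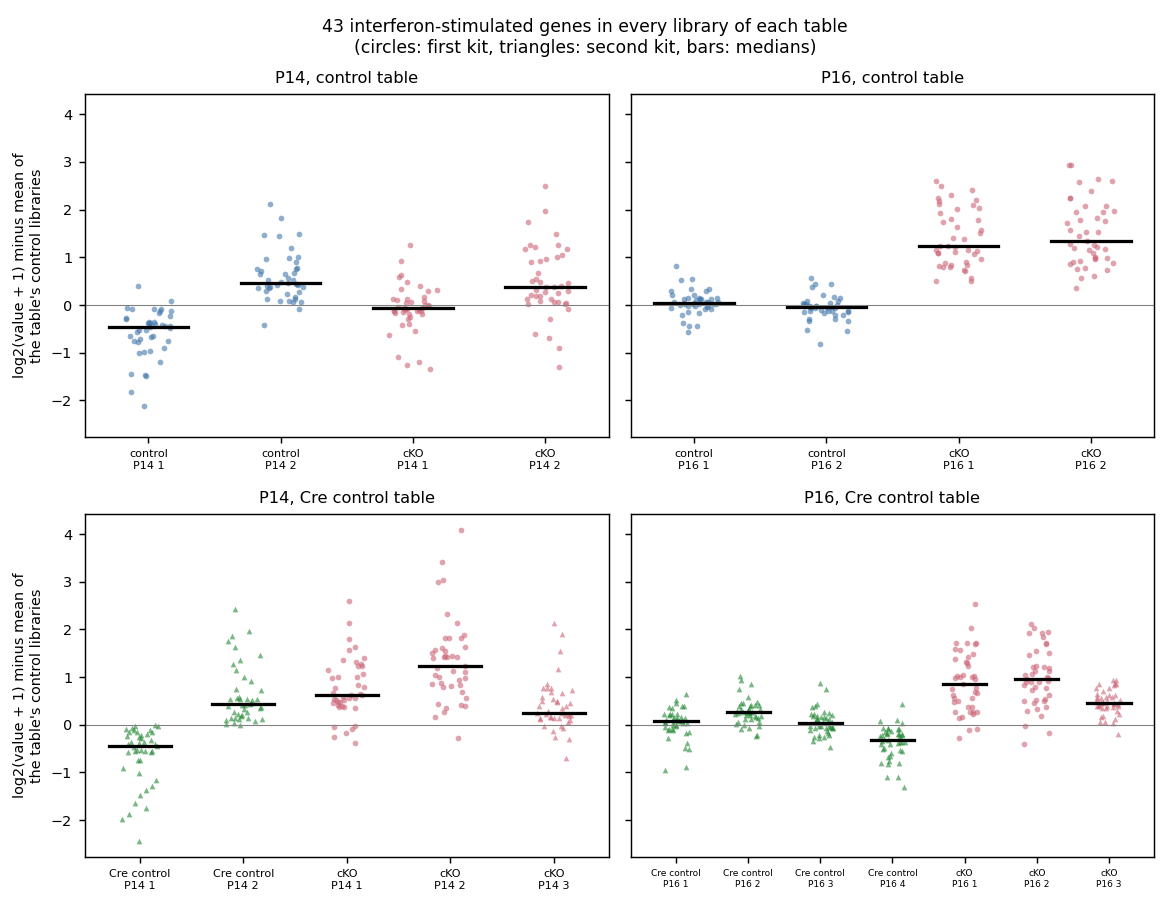
Log2(value + 1) of the 43 genes minus the mean of the control libraries of each table (y axis), 1 point per gene and library, with circles for the first kit, triangles for the second and bars for medians. The P16 controls lie near 0 and both first-kit cKO libraries above them, while at P14 a control or Cre control library of each table reaches above 0 by 0.46 or 0.44 at its median.

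The IFIT genes and most GTPases peaked in different P14 libraries. Ifit1 was at 32.3 and 88.9 in controls and at 75.7 and 214 in cKO, Ifit3 at 35.5 and 145 against 95.2 and 245, and Ifit3b at 4.31 and 41.2 against 35.0 and 83.9. In these 3 genes cKO library 2 was the highest of the 4 libraries and control library 1 the lowest. Ifit1 had a log2 difference of 1.23 (SE 0.59) and an adjusted p of 1.00 (limma), and Ifit2 read 111 and 199 against 157 and 280. Iigp1, by contrast, was at 74.3 and 1400 in controls and at 142 and 213 in cKO. Gbp2 was at 144 and 1099 against 186 and 161, and Igtp at 103 and 784 against 113 and 152. Gbp3 (219 and 762 against 331 and 486) and Gbp7 (306 and 1208 against 393 and 494) had their highest value in control library 2 as well. Cxcl10 was at 4.31 and 65.0 against 6.80 and 10.6. Control library 2 exceeded control library 1 by a median of 2.19 over the 8 GTPases and of 1.72 over the 4 IFIT genes. Against that library, cKO library 2 was higher by a median of 0.88 for the IFIT genes and lower, at -1.23, for the GTPases, of which Mx1 and Mx2 were the 2 that were higher.

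**Figure D5:**
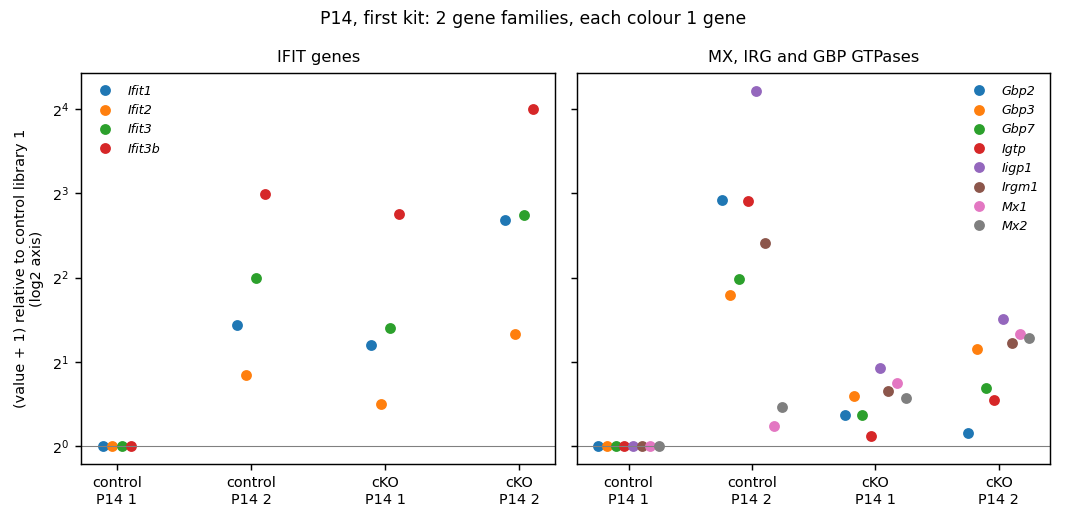
Value + 1 of each gene relative to control library 1 (log2 axis) in the 4 first-kit libraries at P14, 1 colour per gene. Iigp1, Gbp2 and Igtp peak in control library 2, whereas the 4 IFIT genes are highest in cKO library 2.

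The remaining named genes at P14 followed control library 2 to different degrees. Irf7 was at 59.2 and 169 in controls and at 122 and 243 in cKO, and Irf9 at 544 and 1191 against 753 and 1042. Stat2 was at 396 and 817 against 475 and 583, so that its mean was lower in cKO by 0.11 on the log2 scale. Isg15 was at 11.8 and 36.8 against 20.4 and 48.6. Usp18 was at 57.1 and 106 against 117 and 157, with both cKO libraries above both controls, a log2 difference of 0.80 (SE 0.31, limma unadjusted p = 0.0394, adjusted p = 1.00). Trim25 also had its groups apart, at 1022 and 1109 against 1160 and 1237. Oasl2 (498 and 888 against 625 and 882), Oas1a (30.1 and 37.9 against 36.9 and 37.1) and Bst2 (420 and 683 against 535 and 615) overlapped. So did Herc6 (85.0 and 218 against 102 and 139), Ddx60 (206 and 407 against 276 and 275), Parp9 (280 and 455 against 327 and 438), Parp14 (277 and 691 against 334 and 462), Ifi35 (237 and 279 against 234 and 311) and Lgals3bp (180 and 307 against 291 and 445). With a library left out, the sign of the difference turned in 14 of the 22 named genes, among them Irf9, Stat2, Isg15 and Cxcl10.

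The second kit at P14 gave a like picture with fewer libraries, 2 Cre controls and cKO library 3. Of the 43 genes 36 were above the Cre control mean, with a median log2 difference of 0.26, and none of the 39 tested was called by limma, edgeR or DESeq2, where limma called 7 of 17481 genes (0.04%). None was higher at an unadjusted p under 0.05, against 0.217% of all genes. The cKO library was above both Cre controls for 11 of 39 members tested, against 26.7% of all genes. Cre control library 2 exceeded library 1 for 42 of 43 genes, by a median of 0.88. Over the 4 IFIT genes that median was 3.11 and over the GTPases 0.51, so here the IFIT genes differed most between the control replicates. Ifit1 was at 2.30 and 30.8 in the Cre controls and at 15.5 in cKO, and Ifit3 at 8.07 and 68.9 against 44.2. Irf7 was at 25.4 and 154 against 109. In all 3 genes cKO library 3 lay between the Cre control libraries. It was above library 1 for 43 genes and above library 2 for 12, the latter with no share of all genes beside it. Without Cre control library 2, all 39 members tested were thus higher in cKO, against 44.3% of all genes, from 1 library against another and with no test.

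The deposited tables with Cre controls hold all 3 cKO libraries of a stage. Libraries 1 and 2 differ from every Cre control in kit, so kit and genotype cannot be fully told apart there. At P16 these cKO libraries also belong to the contrast that singled out the list. As deposited at P16, 41 of 43 genes had a higher cKO mean, with a median log2 difference of 0.74, given as a description. At P14, 41 of 43 were higher, with a median of 0.69, and none of the members or of all genes was called (0%), with 3 of 39 members higher at an unadjusted p under 0.05, against 2.06% of all genes.

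Between P14 and P16 the groups went in different directions, on log2 CPM (reads scaled to equal library totals) of the recovered reads within a kit. In the controls 40 of 43 genes were lower at P16 (median -0.55), and all P16 libraries lay under all P14 libraries for 15 of the 42 that passed the filter at either stage, against 30.8% of all such genes. In the first-kit cKO libraries 41 were higher at P16 (median 0.64), with no overlap for 31 of those 42, against 30.4% of genes. In the Cre controls 39 were higher (median 0.62), and in the single cKO library 3 of each stage 40 were (median 0.69). The difference between these changes was not tested. The P14 side of each rests on the spread between replicates given above. The P16 control and first-kit cKO libraries are those of the contrast by which the list is known. The changes in these libraries are thus given as a description, and nothing is read from the shares beside them.

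For the Cre controls, the rise from P14 to P16 was tested, since these libraries took no part in choosing the genes. Apart from P16 library 1, the P16 libraries came from another sequencing run than the P14 libraries. Stage and run thus cannot be fully told apart in this test. Limma called 5 of 40 members tested higher, against 9.12% of 18791 genes. At an unadjusted p under 0.05, 15 were higher, against 16.2% of all genes. For 9 of the 40, all P16 libraries were above both P14 libraries, against 21.7% of all genes. The share called and the share with no overlap were near the background, and the share at the unadjusted level was above it. Lgals3bp was at 11.1 and 15.8 CPM at P14 and at 21.9 to 43.1 CPM at P16, higher by 1.24 (SE 0.24, limma adjusted p = 0.00742). Gbp3 went from 4.52 and 7.82 CPM to 10.7 to 18.5 CPM, a difference of 1.33 (SE 0.26, adjusted p = 0.00836). Ddx60 rose by 1.01 (SE 0.22), Oasl2 by 1.06 (SE 0.29) and Stat2 by 0.65 (SE 0.19), with limma adjusted p of 0.0155, 0.0426 and 0.0479. Without Cre control P14 library 1 none was called and the median of all 43 was 0.11, and without P14 library 2 the count was 23 and the median 1.14. Within the run that holds both P14 libraries and P16 library 1, 1 member was called.

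Unadjusted p under 0.05 was also reached by 10 members that were not called. Irf7 had a log2 difference of 1.67 (SE 0.58), Ifit1 of 1.89 (SE 0.80), Oas2 of 1.93 (SE 0.76) and Isg15 of 1.56 (SE 0.65). The others were Irf9, Herc6, Cmpk2, Bst2, Xaf1 and Rtp4, between 0.56 and 0.96. Their adjusted p lay between 0.0860 and 0.160 (limma).

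The rest of the pathway was read from lists that were not picked by how the genes moved, though with earlier results of these data known. Interferons themselves were barely seen. Of 21 ligand genes 18 had 0 reads in all 16 libraries, and Ifng, Ifnl2 and Ifnk had at most 2 reads in any. Since libraries held 14494867 to 27531529 gene reads, a level below that cannot be measured here. At P16 in the first kit, limma called 18.6% of all genes higher and 19.9% lower, and the counts that follow are to be set beside these shares. Of the 6 receptor genes, 4 were called higher. Il10rb, a subunit of the type III receptor, had means of 398 ± 0.026 (SD, n = 2) in controls and 582 ± 58.2 (SD, n = 2) in cKO, higher by 0.54 on the log2 scale (SE 0.086, limma adjusted p = 0.000343). Ifnar2, a subunit of the type I receptor, rose by 0.39 and Ifngr2 of the type II receptor by 0.25.

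Among the JAK-STAT genes, the phosphatase gene Ptpn6 rose by 0.62 on the log2 scale at P16 (limma adjusted p = 0.0377). Ptpn2, a phosphatase that acts on JAK1, fell by 0.46 on the log2 scale. Among 7 other interferon regulatory factors 1 was called higher, Irf2, by 0.56. Of 15 genes listed under nucleic acid sensing, which include the interferon-induced Ifi27, 8 were called higher, Ifi27 among them, and 1 lower. Zbp1, a sensor of Z-form nucleic acid, rose by 1.70, Ddx58, which encodes RIG-I, by 1.09 and Ifih1, which encodes MDA5, by 0.82. Of 6 genes listed as feedback and ISG15 conjugation, 2 were called higher and 2 lower. Uba7 and Ube2l6, which encode the activating and conjugating enzymes for ISG15, rose by 0.84 and 0.79, whereas Socs1, an inhibitor of the JAK kinases, fell by 0.46. The medians of the tested genes in these lists ran from -0.013 for feedback to 0.35 for sensing. At P14 in the first kit limma called no gene of these lists, where it called 0.00579% of all genes. In the second kit the medians ran from -0.064 for feedback to 0.25 for the regulatory factors at P16. At P14 they ran from -0.12 for the receptors to 0.085 for sensing in that kit.

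Markers of macrophages differed at P16 as well, against the same shares of all genes called. Of 12 macrophage markers, 10 were called higher in first-kit cKO, with a median log2 difference of 0.62, and their summed value was 4014 to 4114 in controls and 5699 to 5882 in cKO. Adgre1, C1qa, C1qb, C1qc, Csf1r and Lyz2 were among the 10, and none of the 12 was at 0. Lists for T and NK cells summed to 186 to 191 in controls and 147 to 155 in cKO, with 3 of 12 genes passing the filter and 2 of these called lower. Cd8a, Cd8b1 and Ncr1 had at most 4 reads in any library. The list for B cells and plasmacytoid dendritic cells summed to 27.2 to 34.2 over all 4 libraries, and that for neutrophils to 17.7 to 54.9, with Ly6g at 0 in all 16 libraries of the series. Endothelial markers were called higher for 2 of 8, Leydig cell markers for 3 of 8 and peritubular myoid markers for 1 of 6. Sertoli cell markers were called higher for 7 of 10 (median 0.28), and germ cell markers lower for 6 of 10 (median -0.19).

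In the second kit at P16 the macrophage markers summed to 3582 to 4497 in Cre controls and 4790 in cKO library 3. The median log2 difference was 0.22, and of 12 markers 11 were higher in cKO than the Cre control mean and 1 lower. At P14 in the first kit they summed to 5772 to 5889 in controls and 4849 to 6028 in cKO, with a median of -0.12. Interferon-stimulated genes differed between the replicates of both P14 groups, by a median of 0.92 in the controls. Their relation to the macrophage sums was not tested. The part of the marker cells in the P16 difference was not tested.

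The ISRE core in the promoter window was set beside the size of the difference as a description. At P16 in the first kit the median log2 difference was 1.35 for the 22 genes with the core and 1.05 for the 12 without, over ranges that overlapped. In the second kit at P16 these medians were 0.53 and 0.42, and at P14 in the first kit 0.12 and 0.16.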

How the data were processed

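Testis RNA of 16 libraries was measured by RNA-seq. The submitters' processing notes list Trim Galore, STAR, HTSeq, DESeq2 and the GRCm39 (mm39) build. The authors deposited 4 tables of a signal, whose column names per the file headers are those of STAR gene counts of trimmed first mates. Which of STAR and HTSeq counted the reads is not stated, and the values are counts divided by a factor per library. In all 20 columns 100% of the values were whole multiples of 1 read (tolerance 0.01 read), so whole reads were recovered. Libraries held 14494867 to 27531529 reads on genes. GENCODE M21 named 52081 of the 55414 gene IDs, and all members matched.

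Limma (3.58.1, R 4.3.3, lmFit and eBayes with trend) was run on log2(deposited value + 1) within a table, on genes at 10 or above in 2 or more libraries, with Benjamini-Hochberg adjustment over all genes tested. A gene with an adjusted p under 0.05 is called. Log2 differences are on this scale and understate those of low genes. The Cre control stages, which stand in separate tables, were compared on log2 CPM of the recovered reads (TMM, prior count 1). edgeR 4.0.16 and DESeq2 1.42.0 on the recovered reads were alternatives, as were pseudocounts of 0.1 and 10, TMM scaling, no filter, a minimum of 50, eBayes without trend, the replicate number or the kit as a term, and each library left out. The fits were run on simulated data only as a check that they recover changes put in. Whether they would find changes as small as those of the members, at the spread seen at P14 or in the second kit, was not tested.

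The members, the pathway and marker lists and the tests were chosen with earlier results of these data known. Values per library are given for Irf7, Irf9, Stat2, Ifit1, Ifit3, Ifit3b, Isg15, Usp18, Cxcl10 and, per role group, the 2 genes highest on average in the P16 control table. Tests are given for members with an unadjusted p under 0.05, and from each pathway list up to 3 called genes with the largest change. Ifit2, Oas2, Oas3, Oas1g, Oasl1, Iigp1, Gbp2, Igtp and the ranges of other members were added after their values were seen. One item of the pathway lists is not reported here.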

Additional observations from a re-analysis of the deposited data

Results flagged for a closer look

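Trim30a stood apart in Cre control library 2 at P16, at 125.4 against 95.4, 96.3 and 97.5 in the other 3 Cre controls, by Dixon's criterion for a group of 4. It was the only one of 43 genes so marked, and chance marks about 1 group in 20.

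For Oas1g and Ifi204 every P16 control library lay under every P14 control library, and every P16 Cre control library above every P14 one. Of all genes tested, 30.8% were lower in this way in the controls and 21.7% higher in the Cre controls. The share with both is not given, so the number of such members is not read as a result. Oas1g changed by -1.14 in the controls and by 1.49 in the Cre controls (log2 CPM), on 0 to 4 reads in the first-kit controls. Ifi204 changed by -0.66 and by 0.57. The difference between the groups was not tested, and the groups differ in depletion kit and sequencing run too. The P16 controls also belong to the contrast by which the list is known.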

How the results depend on the processing

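Of 1388 recomputed values, 1269 kept their direction and side of the threshold. No member was called at P14 in either kit, or at P16 in the second kit, under any alternative run. The rest concerns counts over all genes, the Cre control stages and single libraries, and the cause of each change was not tested except where fewer libraries or genes entered. At P16 in the first kit the median difference of the 43 genes was 1.15 with a pseudocount of 10 and 1.24 to 1.36 with a library left out. There eBayes without trend called 1806 genes in all, against 4591 to 7045 with a library left out. At P14 in the first kit the count of all genes called was 0 with no filter or without trend, 6 by DESeq2, 5 with the replicate number as a block, and 0 to 11 with a library left out. In the second kit at P16 it was 4 and 1 with pseudocounts of 0.1 and 10, 134 by DESeq2, 1 with the kit as a covariate and 0 to 25 with a library left out. In the second kit at P14 it was 0 with no filter, without trend or with the kit as a covariate, and 3 by edgeR. A kit covariate needs libraries of both kits, so the fits with it were not on second-kit libraries alone. At P16 the first-kit cKO libraries belong to the contrast by which the list is known.

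For the Cre control stages, 3 members were called with a minimum value of 50 or by edgeR, 0 without trend, 1 within 1 run, and 0 to 23 with a library left out, with medians of 0.11 to 1.14. The count of all genes was 906 without trend, 1099 within 1 run and 571 to 2762 with a library left out. Members with no overlap at P14 numbered 5 to 39 in the first kit and 12 to 43 in the second with a library left out, an alternative chosen after seeing the data. Of all genes tested, 30.6% had cKO higher with no overlap without control library 2 in the first kit. Without Cre control library 2 in the second kit 44.3% did, there from 1 library against another.

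Signs of single genes turned at P14 in the first kit with a library left out. The log2 differences then ran from -0.43 to 0.70 for Irf9, -0.035 to 0.29 for Oas1a, -0.26 to 0.57 for Oasl2, -0.22 to 1.34 for Isg15, -0.25 to 0.45 for Bst2, -0.27 to 0.43 for Parp9 and -0.13 to 0.27 for Ifi35. They ran from -0.63 to 0.41 for Stat2, -0.87 to 0.48 for Herc6, -0.92 to 0.87 for Gbp3, -1.45 to 0.53 for Gbp7, -0.56 to 0.42 for Ddx60, -0.81 to 0.50 for Parp14 and, from its values with no filter, -2.80 to 0.84 for Cxcl10.

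Replicate numbers are shared by libraries of control and cKO, but no label says what a number marks, and with 2 pairs the correlation of same-numbered deviations was 0.20 at P14 and 0.080 at P16. With the replicate block 8200 genes were called at P16 and 5 at P14, and no member lost or gained a call. In the second kit the groups share fewer than 2 replicate numbers, so no block could be fitted. Leaving out the lone second-kit cKO library was not possible, and leaving out a P14 Cre control there gives values with no test. Depth limits the genes with values under 10, such as Oas1g and, at P14, Oas3 and Mx1.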
